A study of Mus musculus with 32 samples.

Results

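The neurogenic factor cascade of the developing cortex was followed through 9 genes, Neurog1, Neurog2, Eomes, Insm1, Btg2, Neurod1, Neurod2, Neurod6 and Nhlh1, which were taken by symbol from the 32285 genes counted in every library. They were measured by single-cell RNA sequencing in dorsal telencephalon, from which the cerebral cortex forms, of C57BL/6J mouse embryos at 4 stages, embryonic day 12.5 (written E12.5), E14.5, then E16.0 and lastly E17.5. At each stage there were 4 wild-type embryos (WT, 2 intact copies of Chd8) and 4 Chd8+/- embryos (het, 1 intact copy), so that 32 libraries fell into 8 groups. Chd8 encodes a chromatin remodelling protein. Each library came from the tissue of an embryo that was processed individually, and medial tissue had been cut away to keep out the future hippocampus. Embryos were paired, WT with het, where their labels matched in stage, sex and replicate number, which made 16 pairs. The labels name no litter. Each pair shares its name within a stage, M1 or M2 for males and F1 or F2 for females.

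Neurog1 and Neurog2 encode proneural basic helix-loop-helix (bHLH) proteins, which start neuronal differentiation in radial glia, the dividing stem cells of the cortical wall. Eomes (also called Tbr2), Insm1 and Btg2 are known from the intermediate progenitors that radial glia produce, and the bHLH genes Neurod1, Nhlh1, Neurod2 and Neurod6 from newborn and maturing excitatory neurons. Proteins of the Neurog and Neurod families bind E-boxes, short DNA sites of the form CANNTG, as dimers with E proteins, and Hes and Id proteins oppose them.

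The promoters of the members whose levels were most alike across cells are shown first, because the pairs differed in E-boxes. Across 20 points, the WT means of 4 stages in 5 sets of cells that share no cell, Neurod2 and Neurod6 had a Pearson correlation of 0.996 and Neurog2 and Btg2 of 0.979, as a description over points that share libraries. The 250 bases before each transcription start, from RefSeq on build GRCm38.p6, are written in the direction of the gene, with every CANNTG in capitals.
Neurod2: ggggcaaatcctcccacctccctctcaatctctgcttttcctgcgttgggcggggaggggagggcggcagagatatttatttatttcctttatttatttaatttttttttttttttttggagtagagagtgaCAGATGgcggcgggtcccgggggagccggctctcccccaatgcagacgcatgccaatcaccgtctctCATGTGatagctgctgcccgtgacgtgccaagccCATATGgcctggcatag
Neurod6: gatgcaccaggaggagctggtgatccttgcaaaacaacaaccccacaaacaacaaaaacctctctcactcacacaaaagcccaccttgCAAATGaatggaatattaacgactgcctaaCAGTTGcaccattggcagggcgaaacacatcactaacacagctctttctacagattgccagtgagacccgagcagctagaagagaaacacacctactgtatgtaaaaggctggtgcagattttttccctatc
Neurog2: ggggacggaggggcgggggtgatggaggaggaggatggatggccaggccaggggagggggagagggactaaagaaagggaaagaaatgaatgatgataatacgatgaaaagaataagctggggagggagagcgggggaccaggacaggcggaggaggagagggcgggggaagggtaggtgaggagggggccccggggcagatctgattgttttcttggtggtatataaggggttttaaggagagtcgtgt
Btg2: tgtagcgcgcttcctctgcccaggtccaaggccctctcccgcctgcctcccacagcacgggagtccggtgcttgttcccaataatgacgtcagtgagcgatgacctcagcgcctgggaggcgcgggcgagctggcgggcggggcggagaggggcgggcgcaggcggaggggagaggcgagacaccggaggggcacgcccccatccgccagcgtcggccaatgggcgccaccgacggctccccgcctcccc

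These windows are chr11:98329646-98329895 (minus strand) for Neurod2, chr6:55681264-55681513 (minus strand) for Neurod6, chr3:127632886-127633135 (plus strand) for Neurog2 and chr1:134079156-134079405 (minus strand) for Btg2. Neurod2 held 3 E-boxes, whose first bases lie at -118 (CAGATG), -51 (CATGTG) and -17 (CATATG) from the start, and Neurod6 held 2, at -162 (CAAATG) and -132 (CAGTTG). Neurog2 and Btg2 held none. CANNTG reads the same form on both strands, and of the 8 members with a RefSeq promoter 4 held it, beside 66.2% of the 32851 promoters searched over the same length. Neurod1 (at -242) and Nhlh1 (at -203) each held 1, and Neurog1 and Eomes held none. CAGATG or its reverse complement CATCTG, a form within CANNTG, was present in 2 of the 8 members, Neurod2 and Nhlh1, beside 14.4% of all promoters. Members with and without these letters are described only; a match is not a bound site, and no match says nothing of the factors.

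On build GRCm38 with the GENCODE M21 annotation, all 9 genes are protein-coding. Neurog1 (ENSMUSG00000048904) lies at chr13:56250478-56252163, Neurog2 (ENSMUSG00000027967) at chr3:127633135-127635631, Eomes (ENSMUSG00000032446) at chr9:118478212-118486132, Insm1 (ENSMUSG00000068154) at chr2:146221921-146225020 and Btg2 (ENSMUSG00000020423) at chr1:134075170-134079120. Neurod1 (ENSMUSG00000034701) lies at chr2:79452521-79456751, Neurod2 (ENSMUSG00000038255) at chr11:98325415-98329648, Neurod6 (ENSMUSG00000037984) at chr6:55677822-55681263 and Nhlh1 (ENSMUSG00000051251) at chr1:172052292-172057573. Neurod1 overlaps Cerkl on its own strand and Gm26755 on the other, and Eomes overlaps Gm33460 on the other strand. Whether the counting used strand is not given in the sources used here, so reads of these overlapping genes cannot be told apart from those of Neurod1 and Eomes.

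The files held UMI counts, in which each captured RNA molecule counts once, with totals of 14710694 to 66499864 per library. After filters on cells and removal of doublets 138226 cells remained, 2399 to 6951 per library, and any pair of libraries shared 7 to 66 cell barcodes, at most 1.30% of the smaller library. Chd8 averaged 40.6, 43.9, 54.6 and 64.3 CPM, the counts scaled to the same total in each library, in WT from E12.5 to E17.5 and 29.8, 37.8, 44.0 and 58.4 CPM in het. Its difference averaged over stages was -0.27 on the log2 scale (SE 0.07), which did not pass the threshold over all genes in edgeR's quasi-likelihood test (adjusted p = 0.112). In Top2a-detected cells, those with a UMI of this cell cycle gene, it was called lower (-0.30, adjusted p = 0.0395). At E17.5 the libraries WT M1, het M1 and het F1 stood apart: their profiles correlated at 0.933 to 0.971 with the other 5, which correlated at 0.970 to 0.995 among themselves. The called steps of the 9 members into E17.5 are therefore also given without these 3 libraries. Emx1, a transcription factor gene that marks dorsal telencephalon, stood between 83.9 and 217 CPM in the WT libraries, while the 7 markers of interneurons and ventral cells summed to at most 271.6 CPM, at E17.5.

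In the tissue as a whole, Neurod1, Neurod2, Neurod6, Eomes and Insm1 were lowest at E12.5 and higher from E14.5, and the proneural genes and Nhlh1 were lowest at E17.5. Between E12.5 and E14.5, 6 of the 9 members rose in WT and none fell, where 25.5% of the 15894 genes tested rose and 27.4% fell. Between E14.5 and E16.0 no member rose and 1 fell (4.88% and 5.72% of genes). Between E16.0 and E17.5 no member rose and 4 fell (7.53% and 9.97% of genes). The median log2 difference of the members was 0.72, -0.30 and -0.36 in the 3 steps, beside -0.04, 0.01 and 0.04 over all genes tested. All tests are edgeR's quasi-likelihood test on summed counts, with Benjamini-Hochberg adjustment over all genes tested and a threshold of 0.05. The CPM ranges of the WT libraries did not overlap for 5 members in the first step (54.7% of the 13000 genes with a mean of at least 1 CPM), for 3 in the second (23.5%) and for 4 in the third (23.0%). In sums over a whole library, fewer cells of a type and less RNA per cell cannot be told apart.

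**Figure D1:**
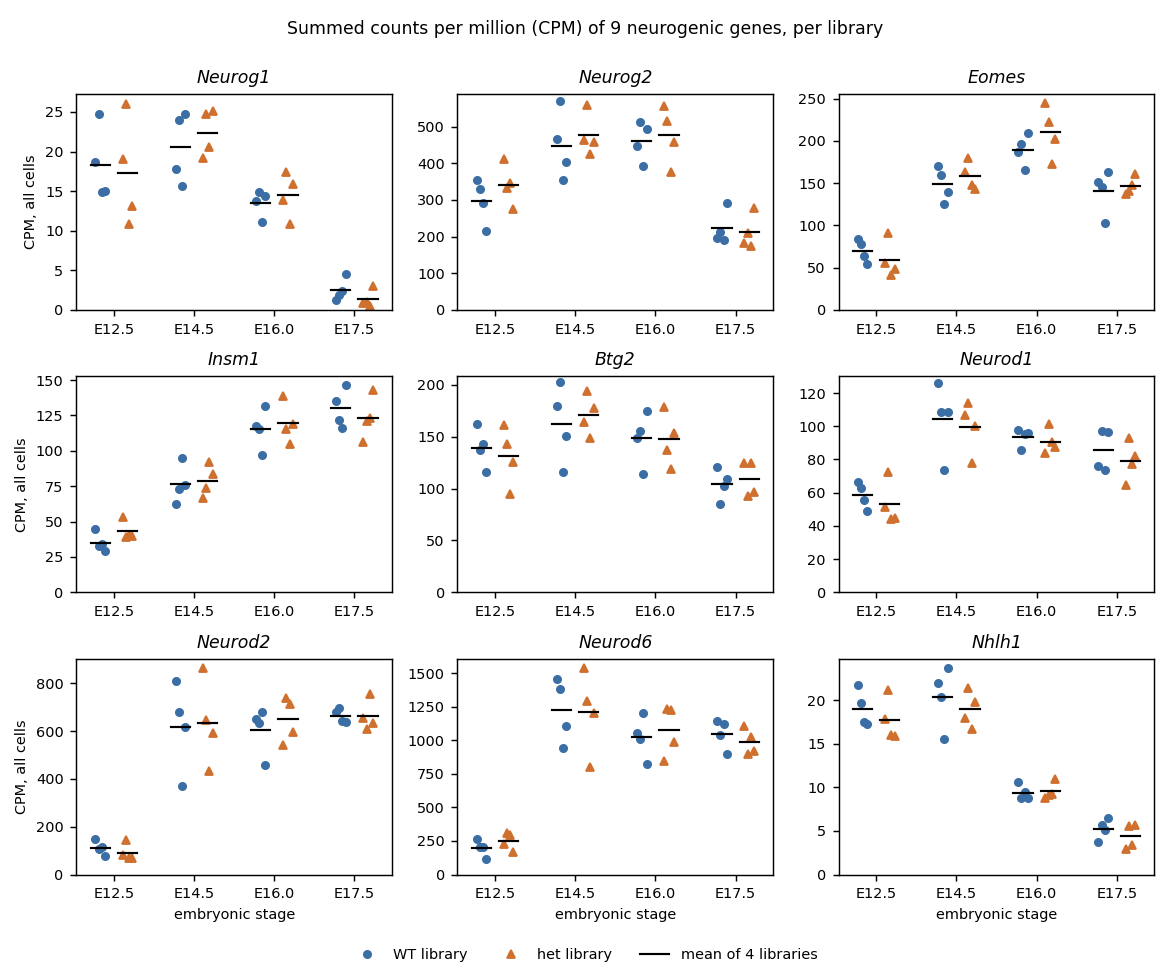
CPM of each member in all cells of a library (vertical axis, linear, 1 panel per gene) against stage, with a point for each WT and het library and a horizontal bar at the mean of 4 libraries. Neurod2 and Neurod6 rise steeply from E12.5 to E14.5 while Neurog1 and Nhlh1 are lowest at E17.5, and the WT and het points overlap in every panel and stage.

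Neurog2, the main proneural gene of the cortex, was counted at 355, 329.7, 292 and 215 CPM in the WT libraries M1, M2, F1 and F2 at E12.5 and at 466, 569, 355 and 403 CPM at E14.5. At E16.0 it stood at 446, 514, 392 and 495 CPM and at E17.5 at 197, 212, 190.4 and 292 CPM. All 4 libraries of E17.5 lay below all 4 of E16.0, whereas E12.5 and E14.5 met at their edges. The fall at E17.5 was -0.98 on the log2 scale (SE 0.17, edgeR adjusted p = 0.000202), and -0.91 without the 3 libraries that stood apart (adjusted p = 0.000725). The rise at E14.5 was 0.48 (SE 0.17, edgeR adjusted p = 0.0197), and it was no longer called without E12.5 WT F2 (0.35, adjusted p = 0.102) or without E14.5 WT M2 (0.35, adjusted p = 0.105).

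Neurog1, a second proneural gene, was rare throughout, with 11 to 1560 UMIs per library. Its WT levels were 18.6, 24.7, 14.8 and 15.05 CPM at E12.5, and 17.7, 24.04, 15.6 and 24.7 CPM at E14.5. They were 13.7, 14.9, 11.1 and 14.4 CPM at E16.0 and 1.30, 1.83, 2.40 and 4.51 CPM at E17.5. The E17.5 libraries were separate from all earlier ones. E14.5 lay just above E16.0 without overlap, a difference that was not called (-0.78, edgeR adjusted p = 0.088). Its fall from E16.0 to E17.5, -2.39 (SE 0.35, edgeR adjusted p = 2.52e-05), had the largest size of the members in that step, and it was -2.16 without the 3 libraries (adjusted p = 8.9e-05).

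Among the genes of intermediate progenitors, Eomes, a T-box transcription factor, and Insm1, a zinc-finger factor that promotes the formation of these progenitors, both rose between E12.5 and E14.5. WT levels of Insm1 were 44.9, 32.4, 34.0 and 29.1 CPM at E12.5 and 62.4, 73.0, 94.6 and 76.1 CPM at E14.5, with no overlap, a difference of 1.02 (SE 0.14, edgeR adjusted p = 9.44e-07). They continued to 117, 115, 96.9 and 131 CPM at E16.0 and 135, 122, 116 and 147 CPM at E17.5. Each later stage lay above E14.5 in every library, but neither later step passed the threshold (0.41, adjusted p = 0.0591, then 0.24, adjusted p = 0.255). With DESeq2 in place of edgeR the step to E16.0 did pass (adjusted p = 0.0413).

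Eomes stood at 54.5 to 84.4 CPM at E12.5, 126 to 171 CPM at E14.5, 165 to 209 CPM at E16.0 and 103 to 163 CPM at E17.5. Its rise at E14.5 was 0.97 (SE 0.16, edgeR adjusted p = 1.02e-05), and the later steps of 0.17 and -0.36 were not called. Btg2, an antiproliferative gene of neurogenic divisions, varied less, with group means of 139.6 ± 19.1, 162 ± 37.1, 148 ± 25.5 and 105 ± 15.2 CPM (SD, n = 4) from E12.5 to E17.5. Its fall at E17.5 was -0.44 (SE 0.15, edgeR adjusted p = 0.0454), and -0.49 without the 3 libraries that stood apart (adjusted p = 0.037). Leaving out any of 11 of the 32 libraries ended that call, among them E16.0 WT F2 (-0.34, adjusted p = 0.175).

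Of the neuronal members, Neurod6 and Neurod2, late bHLH genes of excitatory neurons, showed the largest changes of the 9 from E12.5 to E14.5. WT Neurod6 was 268, 206, 204 and 117 CPM at E12.5 and 1454, 1386, 943 and 1111 CPM at E14.5, a log2 difference of 2.51 (SE 0.22, edgeR adjusted p = 1.87e-10). Neurod2 was 150.4, 106, 116 and 78.3 CPM at E12.5 and 809.9, 679, 369.6 and 617 CPM at E14.5, a difference of 2.35 (SE 0.23, adjusted p = 1.31e-09). The lowest E14.5 library of each gene lay far above the highest of E12.5. After E14.5 Neurod6 averaged 1023 ± 157 and 1051 ± 110 CPM, and Neurod2 606 ± 101 and 663 ± 28.8 CPM (SD, n = 4). Their later log2 differences, -0.42 and 0.11 for Neurod6 and -0.20 and 0.20 for Neurod2, were not called.

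Neurod1, which follows Neurog2 in the cascade, rose by less, from 49.1 to 66.2 CPM at E12.5 to 73.5 to 126 CPM at E14.5 (0.72, SE 0.16, edgeR adjusted p = 0.000337), and ranged from 73.5 to 97.5 CPM later. Nhlh1, a bHLH gene of newborn neurons, took a different course. Its WT levels were 21.7, 19.6, 17.47 and 17.2 CPM at E12.5 and 21.9, 20.35, 15.6 and 23.7 CPM at E14.5. They were 10.55, 8.82, 9.45 and 8.78 CPM at E16.0 and 3.71, 5.63, 5.15 and 6.53 CPM at E17.5. The first pair of stages overlapped, and each later stage lay wholly below the one before it. The falls were -1.29 (SE 0.18, edgeR adjusted p = 2.99e-05) and -0.77 (SE 0.19, adjusted p = 0.00436), the second being -0.62 without the 3 libraries that stood apart (adjusted p = 0.00413).

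To place the members along the path from progenitor to neuron, cells were thinned to 2000 UMIs each and sorted by marker UMIs. Sox2-detected cells, with at least 1 UMI of this progenitor gene, made up 33.2%, 17.1%, 14.6% and 9.66% of WT cells from E12.5 to E17.5. Top2a-detected cells, with a UMI of this gene of S to M phase, made up 27.9%, 11.2%, 13.8% and 6.16%. Cells called post-mitotic had no UMI of Sox2, Top2a or Mki67 and at least 1 of both Tubb3 and Stmn2, genes of the neuronal cytoskeleton, and made up 12.9%, 38.6%, 40.8% and 57.4%. The post-mitotic share moved with the all-cell levels of Neurod2 and Neurod6 between E12.5 and E14.5, and its part in them was not tested. A cell without a UMI of a gene may still express it, so these are sets by detection and not cell types.

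The proneural genes were found more often in the progenitor sets than in post-mitotic cells. Neurog2 had a UMI in 28.7%, 37.2%, 33.9% and 24.9% of Sox2-detected cells (means of 4 WT libraries, E12.5 to E17.5), in 29.7%, 33.6%, 30.9% and 27.8% of Top2a-detected cells, and in 19.4%, 9.89%, 9.07% and 7.23% of post-mitotic cells. Non-neural cells had endothelial, pericyte, microglial or meningeal marker UMIs and none of Sox2, Tubb3 or Stmn2. They serve as a guide to free RNA at the same thinned depth (479, 103, 249 and 271 cells of both genotypes by stage). Cells that held free RNA of Sox2, Tubb3 or Stmn2 were left out by this rule, so the guide may lie too low. The Neurog2 share in non-neural cells was 1.2% to 3.88% by stage. Neurog1 had a UMI in 3.03%, 4.96%, 3.34% and 1.23% of Sox2-detected cells and in 0.67%, 0.18%, 0.18% and 0% of post-mitotic cells, with 0% to 0.21% in non-neural cells. The 95% intervals of these non-neural shares reach 1.16%, 3.52%, 1.47% and 1.35% by stage. The post-mitotic Neurog1 shares therefore cannot be told apart from free RNA, nor can the E17.5 share in Sox2-detected cells. At E17.5 none of the 8258 post-mitotic WT cells had a Neurog1 UMI after thinning, which allows up to 0.0363% of cells with a UMI at that depth and does not limit the share that express it, and at full depth these cells held 5 UMIs. Without thinning, and with the sets drawn from the full counts, Neurog2 was found in 63.6%, 57.7%, 50.2% and 36.9% of Sox2-detected cells and in 49.9%, 29.4%, 21.2% and 15.5% of post-mitotic cells.

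**Figure D2:**
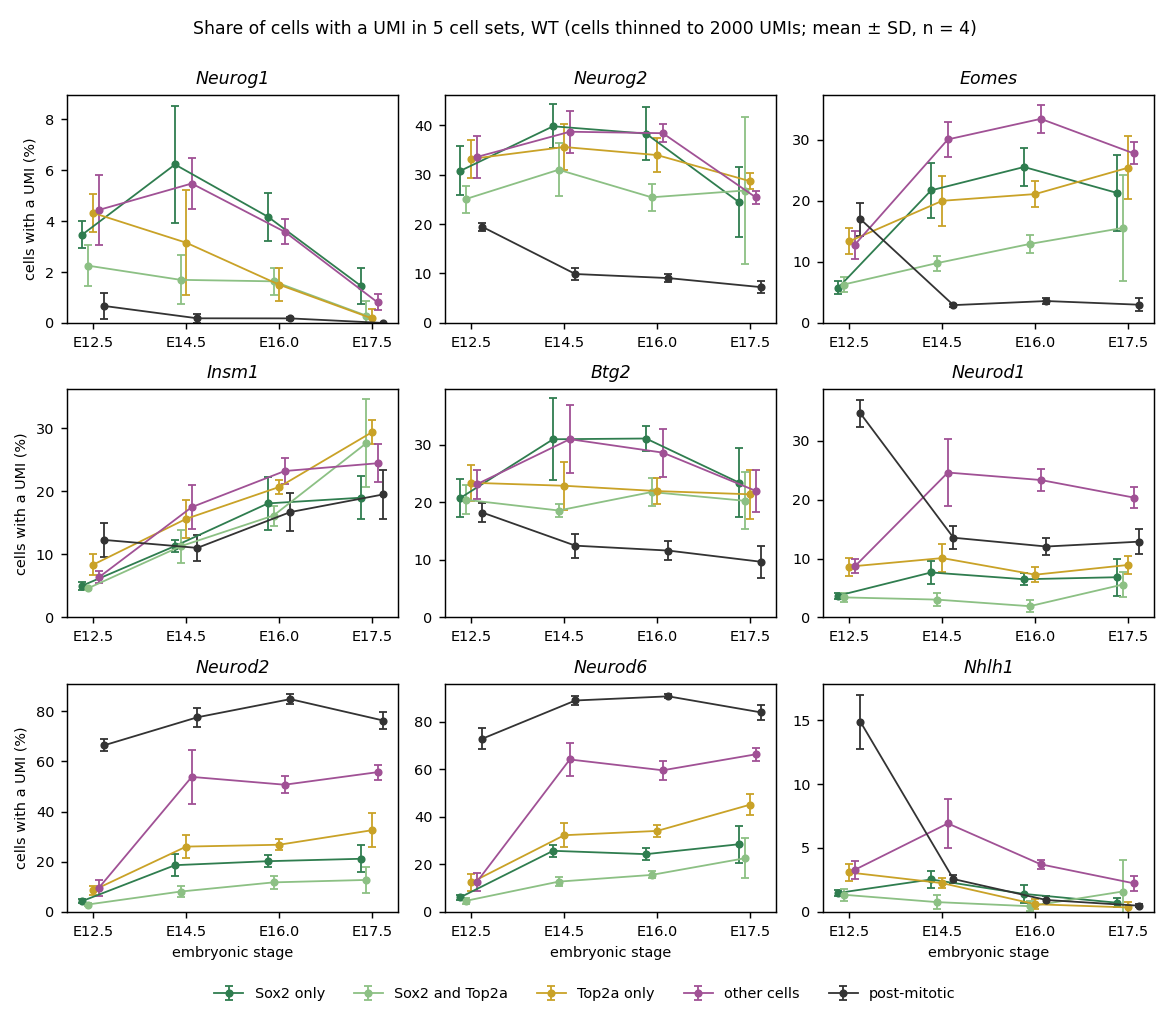
Percent of cells with at least 1 UMI of each member (vertical axis, 1 panel per gene) in 5 sets of WT cells that share no cell (Sox2 UMIs only, Sox2 and Top2a, Top2a only, post-mitotic, and other cells), thinned to 2000 UMIs, against stage, as means over 4 libraries with SD bars cut off at 0. The Neurog2 share is lowest in post-mitotic cells at every stage, the Neurod2 and Neurod6 shares are highest in post-mitotic cells, and the post-mitotic shares of Eomes, Neurod1 and Nhlh1 drop between E12.5 and E14.5.

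Eomes moved between sets with stage. It had a UMI in 16.99% ± 2.73 of post-mitotic WT cells at E12.5 (SD, n = 4). Later shares were 2.92% ± 0.26 at E14.5, 3.59% ± 0.42 at E16.0 and 2.99% ± 1.03 at E17.5. Non-neural cells gave 2.91% at E14.5 (3 of 103 cells, 95% interval 0.60% to 8.28%), 0% at E16.0 and 1.11% at E17.5 (3 of 271 cells, 95% interval 0.23% to 3.20%). The E14.5 and E17.5 shares therefore cannot be told apart from those of free RNA. In Sox2-detected cells the Eomes share went the other way, from 5.95% ± 1.06 at E12.5 to 18.5% ± 3.94, 21.3% ± 1.39 and 20.3% ± 6.57. The lowest post-mitotic library of E12.5 (13.03%) lay above the highest of any later stage (4.23%). Unthinned, the post-mitotic shares were 39.0%, 8.29%, 7.72% and 7.39%, so the drop was there without thinning too. Cells outside the 3 sets held Eomes most often from E14.5, at 30.1%, 33.4% and 27.8%.

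The post-mitotic shares of Neurod1 and Nhlh1 dropped over the same step. Neurod1 was found in 34.7% ± 2.30 of post-mitotic WT cells at E12.5 and in 13.6% ± 1.99, 12.1% ± 1.52 and 12.9% ± 2.17 later (SD, n = 4), against 0.40% to 0.97% of non-neural cells. Nhlh1 was found in 14.9% ± 2.08 of post-mitotic cells at E12.5 and in 2.57% ± 0.34, 0.94% ± 0.34 and 0.49% ± 0.12 later, against at most 0.37% of non-neural cells. The 95% intervals of the non-neural Nhlh1 shares reach 3.52%, 1.47% and 2.04% from E14.5 to E17.5. The post-mitotic Nhlh1 shares after E12.5 therefore cannot be told apart from those of free RNA. For both genes every E12.5 library lay above every later one. From E14.5 Neurod1 was found most often in cells outside the 3 sets, at 24.6%, 23.4% and 20.4%, and Nhlh1 stood there at 6.92%, 3.72% and 2.24%.

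Neurod6 and Neurod2 were the most widely detected members in post-mitotic cells. Neurod6 was found in 72.9%, 89.0%, 90.7% and 83.9% of them and Neurod2 in 66.4%, 77.5%, 84.7% and 76.2%, from E12.5 to E17.5 in WT. They were also found in progenitor sets: Neurod6 in 5.59%, 22.2%, 21.4% and 27.2% of Sox2-detected cells and in 9.08%, 23.8%, 27.5% and 38.1% of Top2a-detected cells. Non-neural cells gave 1.46% to 8.74% for Neurod6 and 0.42% to 4.85% for Neurod2. The non-neural share of Neurod6 was 1.46% at E12.5 and 8.74% at E14.5, below its 5.59% and 22.2% in Sox2-detected cells. Insm1 was spread over the sets, and at E16.0 its shares were 17.4% of Sox2-detected, 19.1% of Top2a-detected and 16.7% of post-mitotic cells. Its Top2a-detected share was 6.76%, 13.7%, 19.1% and 28.8% from E12.5 to E17.5, against 0% to 1.85% in non-neural cells. Btg2 was found in 18.8% to 29.9% of non-neural cells, above the lowest of its shares of 9.65% to 27.9% in the sets. For Btg2 these cells thus do not give the level of free RNA. Its shares in the sets have no such level beside them and are not read as levels of expression.

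Levels within a set were then compared between WT stages on counts summed over its cells. In Sox2-detected cells all 9 members rose from E12.5 to E14.5, where 32.1% of the 12653 genes tested changed and 17.6% rose. The largest log2 differences were those of Neurod2 (2.39, SE 0.22, edgeR adjusted p = 1.51e-09), Neurod6 (2.37, SE 0.21, adjusted p = 3.77e-10) and Eomes (1.98, SE 0.20, adjusted p = 9.72e-09). Neurog2 rose by 1.13 and Neurog1 by 0.96, where the same step in all cells gave 0.48 and 0.06. Neurog2 levels in this set were 338, 316, 279 and 207 CPM at E12.5 and 807, 831, 451 and 631 CPM at E14.5, with no overlap. The members' median difference was 1.13, beside 0.00 over all genes tested. The calls of Btg2 (0.59) and Nhlh1 (0.61) were the less secure ones. That of Btg2 was lost without E12.5 WT F2, E14.5 WT M1 or E14.5 WT M2 (0.51, 0.52 and 0.46). That of Nhlh1 was lost without E12.5 WT F1 or F2 or E14.5 WT M1 or F2 (0.43 to 0.58), and with sets from unthinned counts (0.33) or from cells thinned to 1000 UMIs (0.32). The 7 markers of interneurons and ventral cells summed to 4.12 to 30.02 CPM in this set at E12.5 and 63.3 to 196 CPM at E14.5 in WT. Over the same step the summed markers of excitatory neurons went from 281 to 314 CPM up to 408 to 829 CPM. Those of intermediate progenitors went from 429 to 633 CPM up to 803 to 1564 CPM. Neurod2 and Neurod6 are in the first of these lists and Eomes, Neurog2 and Btg2 in the second. Both sums thus restate part of the members' own rise. The summed markers of hem, choroid and hippocampal primordium went from 58.7 to 112 CPM up to 189.8 to 268 CPM. In all cells, 1 of the 5 genes of that last list had no UMI in any WT library at E14.5, against 0 at E12.5. Its rise was thus not shared by every gene of the list. Over the same step the share of non-neural cells with a UMI rose as well. It went from 1.46% to 8.74% for Neurod6 and from 0.42% to 4.85% for Neurod2. The part of free RNA and of these cell types in the changes was not tested.

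In Top2a-detected cells 4 members rose over the same step (24.6% of 12304 genes changed): Neurod2 (1.91), Neurod6 (1.86), Insm1 (0.98) and Eomes (0.77). In this set excitatory-neuron markers, with Neurod2 and Neurod6 among them, went from 331 to 423 CPM up to 609 to 815 CPM. Hem, choroid and hippocampal markers went from 55.2 to 105 CPM up to 209.7 to 280.3 CPM. Meningeal markers went from 41.0 to 134 CPM down to 1.31 to 5.59 CPM. The part of these markers and of free RNA in the rises was not tested. In post-mitotic cells 2 rose and 5 fell (33.6% of 13398 genes changed), and the members' median was -0.90 beside 0.03 over all genes. Nhlh1 fell from 80.2, 88.3, 70.8 and 94.2 CPM to 12.6, 14.3, 14.6 and 13.9 CPM (-2.60, SE 0.20, edgeR adjusted p = 6.99e-12). Eomes fell from 88.6, 121, 93.5 and 113 CPM to 19.1, 16.8, 17.8 and 19.5 CPM (-2.51, SE 0.21, adjusted p = 5.28e-11). Neurod1 fell by 1.49, Neurog2 by 0.94 and Btg2 by 0.70, while Neurod6 rose by 0.83 and Neurod2 by 0.48. Eomes thus fell in post-mitotic cells over the step in which it rose in both progenitor sets. Marker levels of other cells in the post-mitotic set moved over the same step. The summed Cajal-Retzius markers had a median of 159.9 CPM at E12.5, 67.1 CPM at E14.5 and 23.0 CPM at E16.0. The interneuron median went from 19.8 to 88.7 CPM. Intermediate-progenitor markers went from 544 to 605 CPM down to 212 to 297 CPM at E14.5. That list holds the members Eomes, Neurog2 and Btg2, so its sum restates part of their own fall. The part of these markers in the post-mitotic changes was not tested.

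After E14.5 fewer members were called within the sets. From E14.5 to E16.0 these were 1 of the 9 in Sox2-detected, 1 in Top2a-detected and 2 in post-mitotic cells. From E16.0 to E17.5 they were 3 in each set, beside 25.0%, 14.4% and 6.24% of genes. Nhlh1 fell from E14.5 to E16.0 in all 3 sets, by 1.34 in Sox2-detected cells (6.37% of genes changed), by 1.55 in Top2a-detected cells (4.87%) and by 1.44 in post-mitotic cells (23.0%). In Sox2-detected cells summed hem, choroid and hippocampal markers went from 189.8 to 268 CPM up to 449 to 509 CPM over that step. The part of these markers was not tested. Insm1 rose in post-mitotic cells by 0.64 over that step (edgeR adjusted p = 0.0141), a call lost without E14.5 WT M1 (0.51) or E16.0 WT F2 (0.56). From E16.0 to E17.5 Insm1 rose in Top2a-detected cells, from 115, 110.3, 112 and 137 CPM to 208, 181, 192 and 170.0 CPM (0.70, SE 0.17, adjusted p = 0.0051), where 14.4% of genes changed and its stages did not overlap. Without the 3 libraries that stood apart, the difference was 0.66 (adjusted p = 0.0251). In the same cells the summed oligodendrocyte-precursor markers went from 2.25 to 27.2 CPM at E16.0 to 235 to 431 CPM at E17.5, and the median of interneuron and ventral markers from 26.6 to 213 CPM, and their part in the rise was not tested.

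Over the same last step in Sox2-detected cells, where 25.0% of genes changed, Insm1 (0.45) and Neurod6 (0.60) rose and Neurog1 fell by 1.53. Without the 3 libraries the rises missed the threshold (adjusted p = 0.0514 and 0.0571) and Neurog1 was -1.31 (adjusted p = 0.0203). Both rises were also lost without E17.5 WT F1 (adjusted p = 0.0765 and 0.0623), Insm1 without E16.0 WT F1 (0.0618), and Neurod6 without E16.0 WT M2 (0.0571) or E17.5 WT M1 (0.0626). The Neurod6 call was lost too with sets from unthinned counts (0.44) or from cells thinned to 1000 UMIs (0.52). In this set the 4 markers of oligodendrocyte precursors summed to 3.80 to 30.2 CPM in WT at E16.0 and to 162 to 333 CPM at E17.5, and the 7 of interneurons and ventral cells to 38.9 to 229 and 201 to 823 CPM. Their part in the changes was not tested. In Top2a-detected cells Neurog1 fell by 2.13 (-1.68 without the 3 libraries, adjusted p = 0.0304). Neurog2 fell by 0.46 (adjusted p = 0.0469, and 0.106 without the 3 libraries), a call lost on leaving out any of 14 of the 32 libraries, with unthinned sets (-0.47) and at 1000 UMIs (-0.40). In post-mitotic cells, where 6.24% of genes changed, Nhlh1 fell by 1.11 (-0.93 without the 3 libraries), Neurog2 by 0.62 (also -0.62 without them, and not called at 1000 UMIs, -0.41) and Neurog1 was called lower. Neurog1 there rested on very few molecules, with 5 UMIs in the 4 WT libraries at E17.5 against 60 at E16.0, and its call was lost without the 3 libraries (adjusted p = 0.0645).

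The order of the cascade at each stage was drawn from the log2 ratio of a member's CPM in post-mitotic to that in Sox2-detected cells of the same WT library, with 1 CPM added to both. At E12.5 the order from progenitor to neuron was Neurog1 (-2.18 ± 0.61), Neurog2 (-1.14 ± 0.38), Btg2 (-0.19 ± 0.17), Eomes (1.34 ± 0.44), Insm1 (1.36 ± 0.15), Neurod1 (3.58 ± 0.21), Nhlh1 (3.58 ± 0.26), Neurod6 (4.41 ± 0.15) and Neurod2 (4.83 ± 0.19) (mean ± SD of the log2 ratio, n = 4). Of the 8 neighbouring pairs in that order, 5 did not overlap between libraries, and Neurog1 with Neurog2, Eomes with Insm1 and Neurod1 with Nhlh1 did. Proneural genes thus came before, and Neurod2 and Neurod6 after, the other members.

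At E14.5 the order was Neurog1 (-3.75 ± 0.63), Neurog2 (-3.30 ± 0.31), Eomes (-3.14 ± 0.38), Btg2 (-1.54 ± 0.30), Insm1 (-0.21 ± 0.20), Nhlh1 (0.54 ± 0.68), Neurod1 (1.14 ± 0.45), Neurod6 (2.80 ± 0.42) and Neurod2 (2.90 ± 0.30), and E16.0 gave the same order. Of the 8 neighbours, 3 at E14.5 and 4 at E16.0 did not overlap. Eomes had passed Btg2 and joined the proneural genes, from which it could not be separated at any stage after E12.5. Its ratios at E14.5 and E17.5 rest on post-mitotic shares that could not be told apart from free RNA. The same holds for Neurog1 at every stage and for Nhlh1 after E12.5. At E17.5 Eomes (-3.31 ± 0.94), Neurog2 (-3.24 ± 0.55) and Neurog1 (-2.71 ± 0.74) came first with overlapping ranges, followed by Btg2, Nhlh1 (-0.60 ± 0.79), Insm1, Neurod1, Neurod6 and Neurod2. With sets from unthinned counts the E17.5 order began with Neurog2, Neurog1 and Eomes. With Pax6-detected in place of Sox2-detected cells, 5, 7, 5 and 9 of the 9 members kept their place from E12.5 to E17.5, and none moved by more than 1 place. Neurod2 and Neurod6 exchanged places at E16.0 with sets from cells thinned to 1000 UMIs. Since 1 CPM was added, the ratio of Neurog1 is pulled towards 0 at E17.5, where both sets held little of it.

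**Figure D3:**
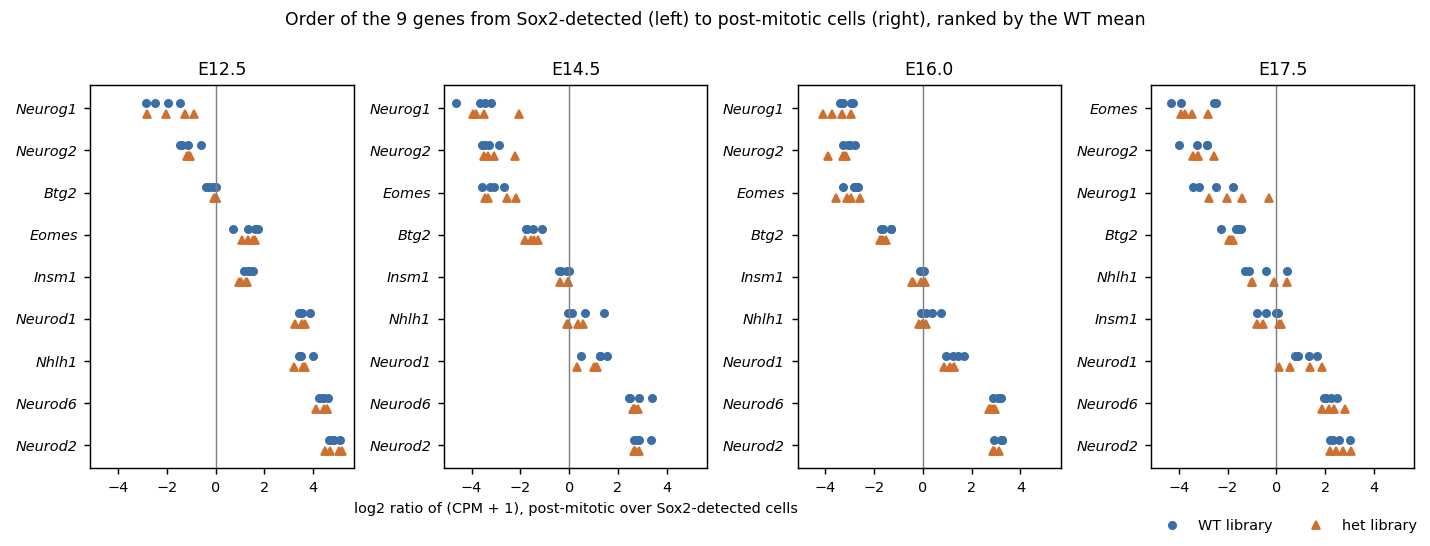
Log2 ratio of CPM in post-mitotic to CPM in Sox2-detected cells (horizontal axis, 1 CPM added to both) for each member, 1 panel per stage, with a circle per WT and a triangle per het library and the members sorted by their WT mean. Eomes moves from a ratio of 1.34 at E12.5 to -3.14 at E14.5, while Neurod2 and Neurod6 hold the neuronal end at every stage.

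Tested within WT libraries with the library as a block, 6 members were higher and 2 lower in post-mitotic than in Sox2-detected cells at E12.5 (76.6% of the 13268 genes tested differed). The counts were 4 higher and 4 lower at E14.5 (76.0%), and 3 and 4 at E16.0 (79.5%) and E17.5 (64.8%). Eomes was 1.32 higher at E12.5 (SE 0.25, edgeR adjusted p = 0.000343) and 3.21 lower, as a log2 difference of -3.21 (SE 0.28, adjusted p = 1.94e-07), at E14.5. Neurod2 was higher at every stage, by 4.85, 2.94, 3.21 and 2.60, and Neurod6 by 4.40, 2.85, 3.14 and 2.26. Neurod1 was higher by 3.61, 1.15, 1.41 and 1.28. Nhlh1 was higher at E12.5 (3.75) and at E14.5 (0.49, adjusted p = 0.0283, lost without WT M2 or WT F1 at 0.43 and 0.29), with 0.41 at E16.0 and -0.72 at E17.5 not called. Insm1 was higher at E12.5 (1.36) and was not called at the later stages, with differences of -0.17, 0.02 and -0.22.

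Sox2-detected cells with a Top2a UMI were compared with those without, to set dividing against other progenitors. At E12.5 3 members were lower with Top2a (21.1% of the 11479 genes tested differed), Neurod2 (-0.57), Neurod6 (-0.56) and Neurog1 (-0.29, edgeR adjusted p = 0.0396). The Neurog1 call was lost without WT M1 or WT M2 (-0.16 in both) and that of Neurod6 without WT F1 or WT F2 (-0.50 and -0.53). At E14.5 and E16.0 8 of the 9 were lower (34.2% and 31.9% of genes differed), and at E17.5 5 were lower and Insm1 was higher (23.6%). The calls of Nhlh1 at E16.0 and of Neurog1 at E17.5 were each lost on leaving out 1 library. At E14.5 the differences of Neurog2 and Eomes were -1.36 and -1.35 and that of Neurog1 -1.68 (adjusted p = 8.75e-14), where at E12.5 Neurog2 and Eomes gave -0.18 and 0.12, which were not called. The difference between stages was not tested. Insm1 was the member not called at E14.5 and E16.0 (-0.20 and 0.07), and at E17.5 it was 0.37 (SE 0.12, adjusted p = 0.0168), a call lost without WT M1 (0.20, adjusted p = 0.344) or WT M2 (0.38, adjusted p = 0.0563). With sets drawn from cells thinned to 1000 UMIs, 10 of the 25 calls at the 4 stages were made, and those lost include every call at E12.5 and E17.5.

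Among Top2a-detected cells, those without a Sox2 UMI were compared with those with one. All called members were higher without Sox2: 8 at E12.5 (10.9% of the 11253 genes tested differed), 7 at E14.5 (12.2%), 5 at E16.0 (17.8%) and 4 at E17.5 (5.96%). Neurod2 was higher by 1.68, 1.65, 1.62 and 1.52 and Neurod6 by 1.66, 1.72, 1.62 and 1.39. Neurod1 was higher by 1.41, 1.95, 1.498 and 1.03, and Insm1 by 0.77, 0.64, 0.30 and 0.32, the last lost without WT M2 (0.21) or WT F2 (0.28). Eomes, the marker of intermediate progenitors, was higher by 1.16, 1.06 and 0.83 and was not called at E17.5 (0.51, edgeR adjusted p = 0.24). Neurog2 was not called at any stage, with differences of 0.32, 0.46, 0.46 and 0.06. With sets from cells thinned to 1000 UMIs 9 of these 24 calls were lost: Btg2 at E12.5, both Eomes and Insm1 at E14.5 and again at E16.0, and all 4 at E17.5. With unthinned sets those of Btg2 at E14.5 (0.09) and Insm1 at E17.5 (0.25) were lost.

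Detection of a second member was counted within single WT cells and is set beside its share of all WT cells. Of all cells from E12.5 to E17.5, 29.996%, 26.99%, 25.3% and 14.9% had Neurog2, 18.1%, 64.3%, 64.2% and 71.6% had Neurod6, 11.1%, 16.8%, 18.3% and 12.6% had Eomes, and 10.3%, 16.3%, 14.6% and 14.2% had Neurod1. Of the cells with a Neurog1 UMI (683, 501, 350 and 49 cells from E12.5 to E17.5), 86.5%, 93.9%, 94.0% and 96.1% also had Neurog2. Of the Neurod2-positive cells, 75.5%, 91.6%, 89.5% and 89.5% had Neurod6. Of the Eomes-positive cells, 61.8%, 72.2%, 71.0% and 56.4% had Neurog2 and 51.2%, 69.6%, 64.2% and 68.8% had Neurod6. From E14.5 on the Neurod6 share was close to that of all cells. Sox2 was found in 17.7%, 18.5%, 16.8% and 14.9% of Eomes-positive cells and in 33.2%, 17.1%, 14.6% and 9.66% of all cells. The share with Top2a among them was 25.8% at E12.5 and 10.1%, 13.5% and 10.9% later. These values are means of 4 libraries at 2000 UMIs per cell, and shares of a gene that is widely detected are raised for that reason alone.

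Neurod1-positive cells had Neurod6 in 67.5%, 94.7%, 91.0% and 88.6% of cases and Eomes in 39.0%, 29.3%, 31.2% and 20.3%. Nhlh1-positive cells, 825 at E12.5 and 144 at E17.5, had Eomes in 39.4%, 37.9%, 41.9% and 37.8% and Neurod1 in 41.1%, 39.0%, 44.1% and 20.8%. No UMI of any of the 9 was found in 45.4% of WT cells at E12.5 and in 17.7%, 16.2% and 13.6% later. Cells with 5 members made up 3.13%, 6.13%, 5.52% and 2.92%, and 1 cell, at E12.5, held all 9.

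**Figure D4:**
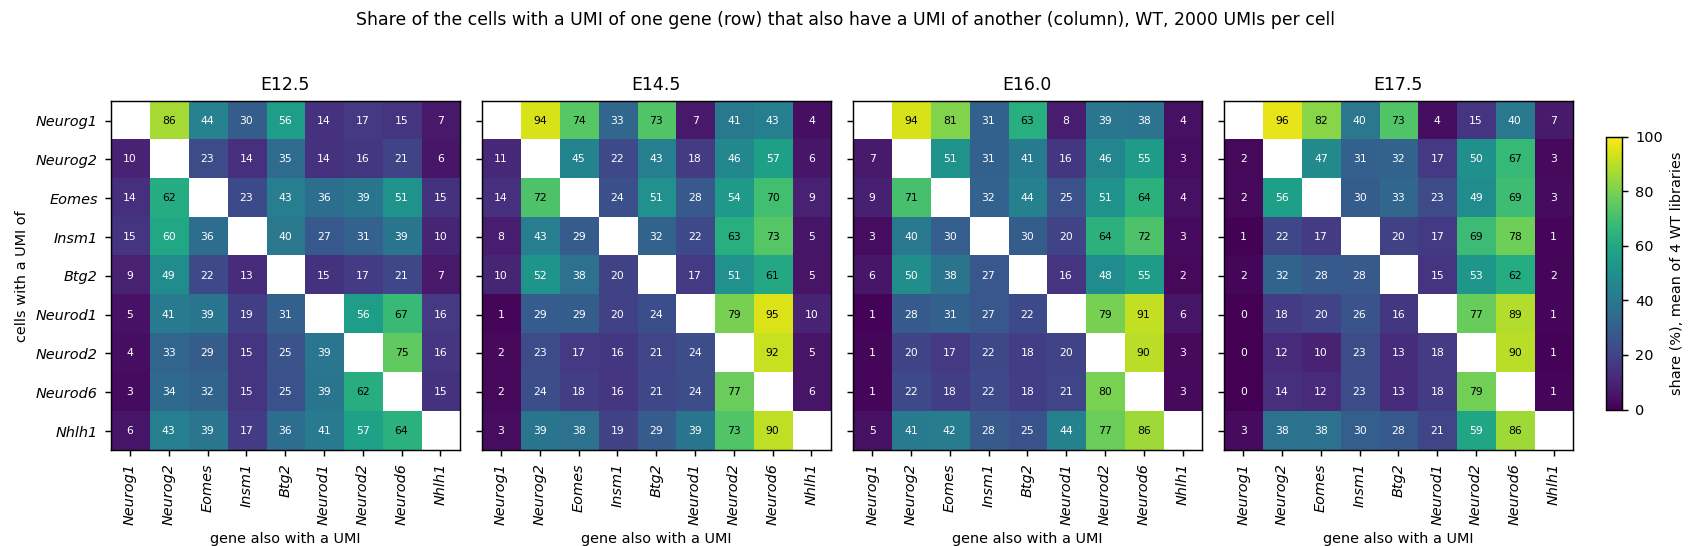
Percent of WT cells with a UMI of the gene in the row that also have a UMI of the gene in the column (colour scale and printed percent, mean of 4 libraries), 1 panel per stage, in cells thinned to 2000 UMIs. Neurod2 and Neurod6 are found together in most cells from E14.5, and nearly all Neurog1-positive cells hold Neurog2.

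Of the 3 E proteins that pair with proneural factors, Tcf4 rose in WT from E12.5 to E14.5 (0.82, SE 0.14, edgeR adjusted p = 1.6e-05) and Tcf3 fell by 0.50, while Tcf12 was not called. Tcf3 fell again at E17.5, by 0.54. Tcf3 and Tcf12 were lower in post-mitotic than in Sox2-detected cells at all 4 stages, with Tcf3 at -0.96, -1.52, -1.53 and -1.02. Tcf4, the E protein with the highest level of the list, differed by 0.20, -0.15, 0.34 and 0.38.

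Among 4 other neurogenic bHLH genes, 2 rose and 1 fell from E12.5 to E14.5, where 25.5% of all genes tested rose and 27.4% fell. Bhlhe22, a gene of postmitotic neurons, went from 23.6, 20.1, 20.2 and 13.2 CPM to 127, 130.3, 64.7 and 88.4 CPM (2.30, SE 0.26, edgeR adjusted p = 2.8e-08), close in size to Neurod2 and Neurod6. Neurod4 rose by 0.79 at low levels, from 2.13 to 3.67 CPM up to 4.64 to 6.42 CPM. Hes6 was not called in any step in all cells. Nhlh2, the relative of Nhlh1, fell by 0.82 and then by 1.39 at E16.0, and rose by 0.61 at E17.5, when Nhlh1 fell. Nhlh2 was higher in post-mitotic than in Sox2-detected cells at every stage (4.49, 2.48, 2.75 and 3.19), as was Bhlhe22, while Neurod4 was lower at every stage.

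Of 16 known targets and commitment genes, 10 rose and 3 fell from E12.5 to E14.5, with a median log2 difference of 0.74, where 25.5% of all genes tested rose and 27.4% fell. Rnd2, a Neurog2 target that acts in migration, rose by 1.33, Sox11 by 1.01, Sox4 by 0.95 and Elavl4 by 0.94, while the Notch ligand gene Dll1 fell by 1.18. Dll1 fell again in both later steps, by 0.67 and 0.55, and 6 of the 16 fell and none rose from E14.5 to E16.0 (5.72% and 4.88% of genes). In post-mitotic against Sox2-detected cells all 16 were higher at E12.5. At E14.5 there were 9 higher and 3 lower, followed by 8 higher and 4 lower (E16.0) and 6 in each direction (E17.5). From E12.5 to E17.5, 76.6%, 76.0%, 79.5% and 64.8% of all genes tested differed. Mfng, a modifier of Notch found in intermediate progenitors, was 0.66 higher at E12.5 and then differed by -2.01, -1.82 and -1.50, where Eomes went from 1.32 to -3.21, -2.87 and -3.29. Gadd45g likewise went from 0.62 to -1.59.

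Of 7 antagonists, 1 rose and 5 fell from E12.5 to E14.5, with a median log2 difference of -1.09, beside the same 25.5% and 27.4% of genes. Hes1, a Notch target that represses proneural genes, fell from 438, 454, 456 and 426 CPM to 127, 198, 149 and 109 CPM (-1.72, SE 0.31, edgeR adjusted p = 4e-05), and fell again by 1.95 at E17.5. Id4 fell in all 3 steps, by 1.47, 0.99 and 1.19, while Id2 rose by 1.67 and, at E17.5, by 0.38. Id1 rose from E14.5 to E16.0, by 1.06 (edgeR adjusted p = 0.00961). At each stage 6 of the 7 were lower in post-mitotic than in Sox2-detected cells and Id2 was higher (1.69, 2.74, 2.34 and 1.90), where 64.8% to 79.5% of genes differed.

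The 2 genes outside the list with the pattern most like each member were found among 8568 genes over the same 20 points. Neurod2 and Neurod6 were both most like Nkain3 (Pearson correlation 0.986 and 0.9796), followed by Prdm8 and Podxl2. Neurog2 was most like Mfap2 (0.946) and Dhrs4 (0.938), and Btg2 like Btbd17 (0.935) and Mfap2 (0.928). Eomes was most like Abcd2 (0.926) and Mfng (0.893), and Insm1 like Qser1 (0.953) and Cdh10 (0.9404). Nhlh1 was most like Tmem176b (0.955) and Nxph4 (0.912), Neurod1 like Sorbs2 (0.926) and Bcar1 (0.924), and Neurog1 like Naca (0.937) and Eif3m (0.935). Of the members themselves, Neurog1 and Neurod2 were the least alike (-0.479).

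Loss of a Chd8 copy was asked of each member at each stage. None of the 9 was called at any stage in all cells, where edgeR called 0.296% of 15894 genes at E12.5 and 0% at E14.5, E16.0 and E17.5. Averaged over stages none was called either (0.352% of genes), with differences from -0.19 for Neurog1 to 0.09 for Insm1 and a median of 0.02, beside 0.00 over all genes tested. The Neurog1 value moved to -0.37 without E17.5 het F2 and to -0.09 without E17.5 WT F2. At an unadjusted p under 0.05 there were 2 of the 36 tests, Insm1 at E12.5 and Neurog1 at E17.5, while 2451, 282, 248 and 664 of the 15894 genes passed that level from E12.5 to E17.5, and DESeq2 called none of the 9 (4.03% of genes at E12.5). WT and het ranges overlapped for all 9 members at all 4 stages, while from E12.5 to E17.5 they did not overlap for 11.8%, 1.29%, 1.83% and 1.79% of the genes with a mean of at least 1 CPM. In edgeR the effect differed between stages, or between females and males, for none of the 9 and for no gene tested, with 754 and 97 genes at an unadjusted p under 0.05. DESeq2 called 10 genes for the difference between stages, none of them a member (lowest adjusted p of the 9 0.325).

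**Figure D5:**
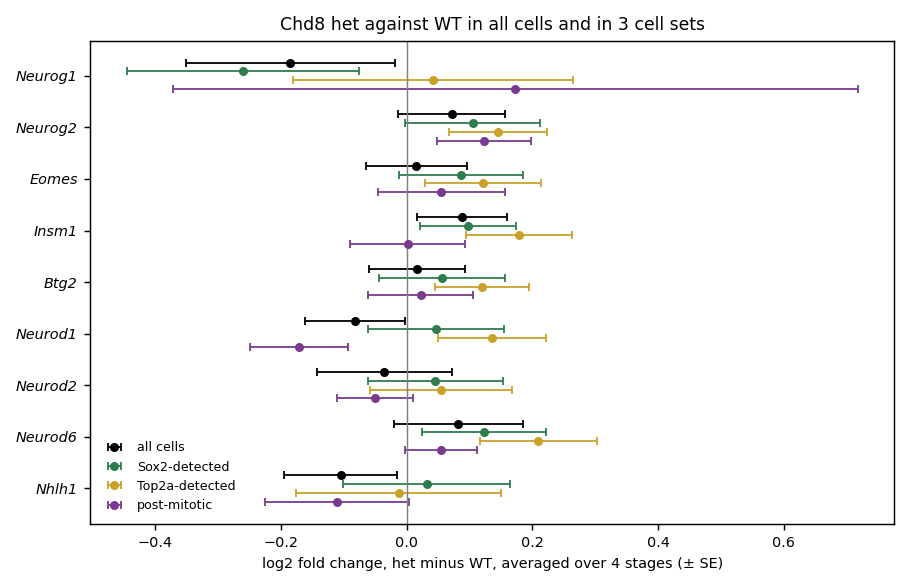
Log2 difference het minus WT of each member averaged over the 4 stages (horizontal axis, points with bars of 1 SE), from edgeR, in all cells and in Sox2-detected, Top2a-detected and post-mitotic cells. In all cells the points run from -0.19 for Neurog1 to 0.09 for Insm1, and no value passed the threshold.

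At E12.5 Insm1 stood at 44.9, 32.4, 34.0 and 29.1 CPM in the WT libraries M1, M2, F1 and F2 and at 53.3, 39.2, 40.4 and 39.9 CPM in their het partners. The het embryo was higher in 4 of 4 pairs, although the groups overlapped through WT M1. Neurog2 was 355, 329.7, 292 and 215 CPM in WT and 412, 333, 347 and 275 CPM in het, higher in 4 of 4 pairs. Neurod6 was 268, 206, 204 and 117 CPM in WT and 229, 311, 297 and 167.5 CPM in het, higher in 3 of 4. With the pair as a block, a fit that compares each het embryo with its partner, these 3 were called higher at E12.5: Insm1 by 0.39 (SE 0.07, edgeR adjusted p = 0.00875), Neurog2 by 0.29 (SE 0.08, adjusted p = 0.0222) and Neurod6 by 0.44 (SE 0.12, adjusted p = 0.028). That fit called 13.6% of all genes at E12.5. The het libraries of that stage were shallower in 3 of 4 pairs, with a median of 4158 to 10602 UMIs per cell against 8664.5 to 10558.5 in WT, and the summed hem, choroid and hippocampal markers of all cells were 29.1 to 63.2 CPM in het against 50.7 to 89.0 CPM in WT. In post-mitotic cells these markers did not overlap, at 30.4 to 63.2 CPM in het and 78.1 to 114 CPM in WT. The part of depth and of these markers in the differences was not tested. The blocked fit called none of the 9 at E14.5, E16.0 and E17.5 (0.00629%, 0.0189% and 0.0126% of genes), nor averaged over stages (1.7%).

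At E17.5 Neurog1 stood at 1.30, 1.83, 2.40 and 4.51 CPM in WT and 0.94, 1.02, 0.48 and 3.02 CPM in het, lower in the het embryo of 4 of 4 pairs, as were Neurog2 and Nhlh1 at that stage. Neurog1 had been higher in het in 2 of 4 pairs at E12.5, 4 of 4 at E14.5 and 3 of 4 at E16.0. Counts of pairs are a description only, at E12.5 too. The share of all genes that went the same way in 4 of 4 pairs is not given here. The E17.5 groups of Neurog1 overlapped, and its difference of -0.95 (SE 0.41) had an edgeR adjusted p of 0.92. Of the 3 libraries that stood apart at this stage 2 are het, and without the 3 the difference was -0.55, also not called. It was -1.69 without het F2 and -0.57 without WT F2.

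Within sets of cells the het difference averaged over stages was called for none of the 9, in Sox2-detected cells (0.134% of genes called), Top2a-detected cells (0.284%) or post-mitotic cells (0.127%). In Top2a-detected cells the largest were Neurod6 (0.21, SE 0.09, edgeR adjusted p = 0.473) and Insm1 (0.18, SE 0.08, adjusted p = 0.506). The placement of a member between post-mitotic and Sox2-detected cells differed by genotype for none of the 9 (0% of genes), with differences from -0.21 for Neurod1 to 0.34 for Neurog1. In het embryos the order of the cascade gave the same place as in WT to 7, 9, 9 and 7 of the 9 members from E12.5 to E17.5, and no member moved by more than 1 place. A difference that misses the threshold does not show that WT and het were alike.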

How the data were processed

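Single-cell RNA was measured with 10x 3′ v2 libraries, 1 per embryo. The deposited values were raw UMI counts per gene and barcode, and the submitters' processing notes name STAR 2.7.9a, STARsolo, Cell Ranger and mm10 without roles; whether counting used strand is not given in the sources used here. Barcodes passed with 1000 UMIs and 500 genes or more and mitochondrial UMIs of 10% or less (143697 of 145082), and 5471 were then removed as likely doublets by scores against simulated doublets, at 0.8% per 1000 cells. For shares and sets each cell was thinned to 2000 UMIs, which left out 1899 cells: from E12.5 to E17.5 these were 0, 0, 219 and 326 in WT and 450, 12, 355 and 537 in het. Set CPM used the full counts of the cells kept.

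Counts summed per library, or per library and set, were tested with edgeR 4.0.16 (quasi-likelihood, TMM, low counts removed by filterByExpr, R 4.3.3) over all genes, with Benjamini-Hochberg adjustment at 0.05, and DESeq2 1.42.0 was an alternative. Comparisons of sets had the library as a block. Stage, sex and replicate number in the labels pair the WT and het embryos, and their deviations from group means correlated at 0.182 to 0.841 in all 16 pairs. The code was tested on simulated data. Gene positions come from GENCODE M21, to which 99.6% of gene IDs matched. Every member is named, the fixed lists give the other genes, and the 2 genes outside the members with the highest correlation are named for each. Some genes of the lists are not reported here. The members and lists were chosen with earlier results of these data known. Intervals and limits on shares cover counting error only.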

Additional observations from a re-analysis of the deposited data

Results flagged for a closer look

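In 11 of 288 groups of 4 libraries the highest or lowest value lay far from the other 3, where chance gives about 14.4. In all cells this was the Insm1 level of 1 het library at E12.5 (53.3 CPM). In Sox2-detected cells it was the Neurog2 share of 1 het library at E16.0 (39.7%) and at E17.5 (15.98%), and in WT the share of Insm1 at E12.5 (5.61%), of Neurod6 at E14.5 (18.7%) and of Neurod1 at E16.0 (5.98%). In Top2a-detected cells it was the Neurod2 share of a WT library at E17.5 (17.7%) and the Nhlh1 share of a het library at E16.0 (0.727%). In post-mitotic cells it was the Neurod1 share of a WT library at E16.0 (9.81%), and in het the Nhlh1 share at E14.5 (3.14%) and the Neurog1 share at E17.5 (0.0418%).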

How the results depend on the processing

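With the pair of embryos as a replicate block, 3 members were called between het and WT at E12.5 in place of 0. No other call between genotypes changed in the fits made with it. The genotype difference by sex and that in the ratio of post-mitotic to Sox2-detected cells were not fitted with it. Stage steps could not be fitted with that block. Thinning to 1000 UMIs lowered the calls between Sox2-detected cells with and without Top2a from 25 to 10 of 36 and ended 28 calls in all, where unthinned sets ended 5; the cause was not tested. Leaving out each library in turn gave 10 to 14 calls of WT steps in all cells (11 of 27), 29 to 40 within sets (33 of 81), 30 to 32 for post-mitotic against Sox2-detected cells (30 of 36), 24 to 26 for Sox2-detected cells by Top2a and 23 to 26 for Top2a-detected cells by Sox2 (24), and 0 to 0 between genotypes. Small differences changed sign: Nhlh1 from E12.5 to E14.5 was 0.025 with DESeq2, 0.043 with no filter on low counts and 0.00023 without the 3 E17.5 libraries, without which Neurod1 from E16.0 to E17.5 was 0.015 and Btg2 between genotypes -0.0087. Leaving out single libraries, the genotype difference ranged from -0.047 to 0.047 for Eomes, -0.015 to 0.045 for Btg2 and -0.10 to 0.0048 for Neurod2. The step to E14.5 ranged from -0.068 to 0.25 for Neurog1, -0.0084 to 0.23 for Btg2 and -0.11 to 0.10 for Nhlh1, and the step to E17.5 from -0.14 to 0.014 for Neurod1. Of 512 values under the other alternatives 464 kept direction and call, 37 lost the call, 6 gained it and 5 changed sign. Neurog1 and Nhlh1 had the fewest UMIs of the members, down to 11 and 40 in a library.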
